A study of Mus musculus with 4 samples.

Results

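Secreted Wnt antagonists were examined in sorted mouse mammary basal cells carrying wild-type or Cre-treated floxed alleles of the microRNA miR-205. The group held 8 genes taken by symbol, Sfrp1, Sfrp2, Sfrp4, Dkk2, Dkk3, Frzb, Wif1 and Apcdd1, and each matched 1 of the 34615 gene rows. The series title names Wnt signaling as a pathway under study. RNA was sequenced in 4 libraries, WT_r1 and WT_r2 of the WT genotype and KO_r1 and KO_r2 of the KO genotype, and values below follow that order within a genotype. The WT genotype is labelled WTfl/flmTmGfl/fl cre+ and the KO genotype miR205fl/flmTmGfl/fl cre+, where mTmG is a Rosa26 membrane reporter that switches from red to green when Cre acts. Cells of both genotypes received a Cre adenovirus and were grafted into SCID-Beige mice aged 3 weeks, hosts that lack functional lymphocytes but keep myeloid cells, vessels and mammary stroma. After 8 weeks, GFP+ CD24+ CD49f-high basal cells were sorted from 40 pooled outgrowths. The labels do not say whether the libraries of a genotype came from separate pools, so p-values measure the spread between libraries, which may be technical.

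Wnt ligands signal by joining a Frizzled receptor to the co-receptor Lrp5 or Lrp6, which stabilises beta-catenin. Secreted frizzled-related proteins (the Sfrp genes and Frzb) and Wif1 bind the ligand itself. Dickkopf proteins act at the co-receptor: Dkk2 binds Lrp5 and Lrp6, while Dkk3 is a divergent member of that family without a settled role in the pathway. Apcdd1 is held in the membrane and binds both ligand and co-receptor, so it is an antagonist at the cell surface rather than a secreted one. In the mammary gland, Wnt signals are known to sustain basal stem cells and branching. MicroRNAs lower the RNAs whose 3' UTR pairs with their seed, bases 2 to 8.

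The deleted microRNA and the matches to it in the most abundant antagonists are shown because a direct effect of miR-205 would run through such sites. Capitals mark the seed in the microRNA, at chr1:193507503-193507524 on the minus strand of GRCm38.p6 (RefSeq), and the bases of the match in the transcripts. Each transcript stretch has 22 bases and ends at its site.
miR-205-5p: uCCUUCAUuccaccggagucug
Sfrp1 3' UTR: gggtctgcttttgtATGAAGGA
Dkk3 3' UTR: ggatggaagatttgttTGAAGG
The Sfrp1 match covers the whole seed and is followed by A, which is called an 8mer, and starts at base 760 of a 3' UTR of 3144 bases in GENCODE M21. The Dkk3 match, at base 265 of 2194, is a 6mer of TGAAGG and lacks the pairing with base 8. Apcdd1 carried 3 matches to ATGAAGG and 1 to TGAAGG alone in its longest 3' UTR of 8901 bases. Sfrp4 and Dkk2 had 1 match each to TGAAGGA, and Sfrp2, Frzb and Wif1 had none of these letters. Matches to ATGAAGG were thus present in 2 of 8 antagonists, and in 12.1% of the 12635 tested genes with a coding transcript and a 3' UTR. Matches to TGAAGG, which include the longer ones, were present in 5 of 8 and in 37.8%. These shares were not matched for 3' UTR length, and they cover tested genes, whereas 5 of the 8 antagonists were tested. A match is a description of the sequence and was not tested for function here.

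Library depth ran from 47953972 to 60030932 gene counts. KO_r2 stood apart from the other libraries: 12679 genes had a count there against 18027 to 18897 elsewhere, and its correlation with each other library was 0.893 to 0.899 (log2(CPM + 1) across 15364 genes) against 0.972 to 0.981 among the other libraries. Among genes at 1 to 5 CPM (read counts relative to the library total, scaled by TMM) in WT, 40.6% had 0 counts in KO_r2 and 0.593% in KO_r1. The antagonist levels below are therefore given library by library. Mir205 had 0 counts in all 4 libraries and gave no check of the genotype. Basal markers were abundant throughout, with a summed level of 10450 to 12820 CPM over 9 genes, led by Acta2 and Itga6.

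Dkk3 and Sfrp1 supplied most of the antagonist RNA. These are bulk libraries, in which fewer cells of a type and less RNA per cell cannot be told apart. Per kilobase of exon, which allows genes to be compared, the mean levels over 4 libraries were 66.6 CPM for Dkk3, 21.3 for Sfrp1, 7.96 for Wif1, 3.74 for Sfrp2 and 0.535 for Apcdd1. Frzb, Dkk2 and Sfrp4 followed far below, at 0.0221, 0.0169 and 0.0149 CPM per kilobase. Dkk3 exceeded Sfrp1 per kilobase in all 4 libraries, 1.92 to 5.46 times, and Wif1 exceeded Sfrp2 in all 4. Sfrp1 and Wif1 changed places between libraries, as did Sfrp2 and Apcdd1. In KO_r1 Wif1 stood at 14.1 CPM per kilobase, above Sfrp1 at 9.82, and in KO_r2 Apcdd1 stood at 1.01, above Sfrp2 at 0.534. Exon lengths came from GENCODE M21, which places Dkk3 on chromosome 7, Sfrp1 on 8, Wif1 on 10, Sfrp2 and Dkk2 on 3, Apcdd1 on 18, Frzb on 2 and Sfrp4 on 13 (GRCm38). The counts used an earlier build, so coordinates of the genes are not given. Apcdd1 has a union of 12.884 kilobases which includes the 3' UTR of 8901 bases, and with its longest coding transcript instead of all exons its level was 0.634 CPM per kilobase.

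**Figure D1:**
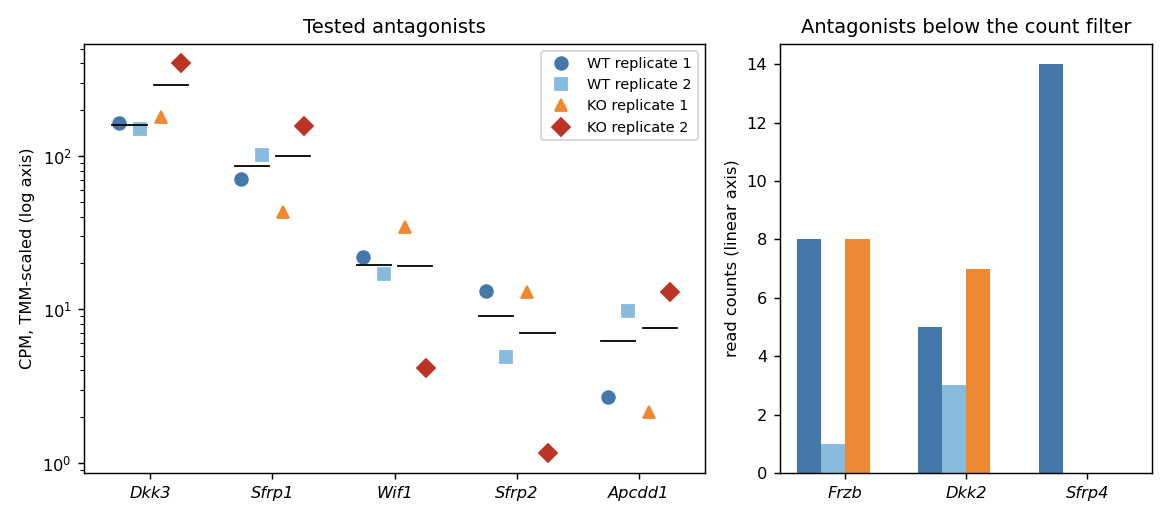
Levels of the antagonists in each library. Left, CPM after TMM scaling on a log axis for the 5 tested genes, with black lines at the mean of each genotype (n = 2). Right, read counts on a linear axis for the 3 genes below the filter. Dkk3 has both KO libraries above both WT libraries, and KO_r2 is the highest library for Dkk3, Sfrp1 and Apcdd1 and the lowest for Wif1 and Sfrp2.

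No tested antagonist passed the test of KO against WT. The edgeR quasi-likelihood test covered 5 of the 8 genes, and 0 of 5 were called at a Benjamini-Hochberg adjusted p under 0.05, as were 0 of 15364 genes (0%), and no adjusted p was below 0.9989. Unadjusted p-values were under 0.05 for 0 of 5 antagonists and 0.957% of all tested genes. DESeq2 called 4 genes and limma voom called 0, with no antagonist among them. Fold changes were positive for 3 of 5 antagonists (1 of 5 with limma voom and 2 of 5 with a replicate block), against 42.8% of tested genes, and the median log2 fold change was 0.21, against -0.14 over all tested genes. Both KO libraries lay above both WT libraries for 1 antagonist, Dkk3, a pattern found in 13.2% of tested genes. The opposite pattern was found in 0 antagonists and in 19.2% of tested genes. An exact permutation test of 2 against 2 cannot go below p = 0.33.

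Among the Dickkopf genes, Dkk3 was higher in both KO libraries, by a margin that came mostly from 1 of them. It stood at 164.8 and 150.6 CPM in the WT libraries and at 180.2 and 399.7 CPM in the KO libraries. KO_r1 was 1.14 times the WT mean and KO_r2 was 2.53 times. The means were 157.7 ± 10.1 CPM in the WT pair and 290.0 ± 155 CPM in KO (SD, n = 2), and the fitted log2 fold change was 0.88 ± 0.41 (SE; edgeR adjusted p of 0.9989). Without KO_r2 the log2 fold change was 0.20 ± 0.18 (edgeR adjusted p of 0.9998). Genes at 100 CPM or more in WT had a median absolute log2 difference from the WT mean of 0.39 in KO_r2 and 0.14 in KO_r1 (log2(CPM + 1)), where Dkk3 had 1.34 and 0.19. The order of the libraries was the same with TMM, DESeq2, upper quartile and total count scaling.

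Dkk2, which binds the co-receptors, was close to absent. It had 5 and 3 counts in the WT pair and 7 and 0 in the KO pair, so its highest level was 0.1114 CPM in KO_r1 (95% exact Poisson interval 0.0448 to 0.229, for counting error only). The counts in WT and in KO overlapped, and no difference was detectable at this depth. In KO_r2, where the count was 0, a limit of 3 counts stands at 0.0719 CPM and the exact interval reaches 0.0884 CPM.

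Among the secreted frizzled-related genes, Sfrp1 went in opposite directions in the KO libraries. It stood at 70.54 and 102.0 CPM in the WT pair and at 42.94 and 156.9 CPM in the KO pair, so that KO_r1 was the lowest library and KO_r2 the highest. The WT mean was 2.01 times KO_r1, and KO_r2 was 1.82 times the WT mean. The fitted log2 fold change was 0.21 ± 0.64 (edgeR adjusted p of 0.9989), smaller than its error, and it was -1.0 ± 0.30 without KO_r2 (edgeR adjusted p of 0.9998). Without KO_r1 it was 0.86 ± 0.26 (edgeR adjusted p of 0.04211), in a fit that called 12.4% of tested genes higher. The gap within KO, 3.65 times, was wider than the gap within WT, 1.45 times. The transcript with the 8mer site shown above thus had no common direction in the KO libraries.

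Sfrp2, a frizzled-related gene also made by fibroblasts, was nearly equal in the replicates numbered 1 and low in KO_r2. It stood at 13.2 and 4.925 CPM in the WT pair and at 12.89 and 1.151 CPM in the KO pair. The WT mean of 9.064 CPM was 7.88 times the level of KO_r2, while KO_r1 was 1.42 times that mean. Its fitted log2 fold change was -0.37 ± 1.35 (edgeR adjusted p of 0.9989). The antisense gene Gm26771 overlaps 347 bases of Sfrp2 exons in GENCODE M21 and has no row of its own; with the strand setting unknown, reads from it cannot be told apart from Sfrp2. The other 7 antagonists share no exon bases with another annotated gene.

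Frzb and Sfrp4, the remaining frizzled-related genes, were seen in few reads. Frzb had 8 and 1 counts in the WT pair and 8 and 0 in the KO pair. Sfrp4 had 14 counts in WT_r1 (0.2484 CPM, interval 0.136 to 0.417) and 0 in the 3 other libraries. There a limit of 3 counts stands at 0.0477 to 0.0719 CPM, and the exact intervals reach 0.0587 to 0.0884 CPM. Neither passed the filter on low counts, and neither separated the genotypes.

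Wif1, which binds Wnt ligands through a domain unlike that of Frizzled, had nearly equal means in the genotypes and the widest gap within KO next to Sfrp2. It stood at 21.83 and 17.09 CPM in the WT pair and at 34.24 and 4.147 CPM in the KO pair. KO_r1 was 1.76 times the WT mean, above both WT libraries, and the WT mean was 4.69 times KO_r2, the lowest library. The means were 19.46 ± 3.35 CPM in the WT pair and 19.19 ± 21.3 CPM in KO (SD, n = 2), with a fitted log2 fold change of -0.02 ± 1.03 (edgeR adjusted p of 0.9997).

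Apcdd1, the membrane-bound antagonist and itself a known target of beta-catenin, was ordered by replicate number in both genotypes. It stood at 2.68 and 9.699 CPM in the WT pair and at 2.148 and 13.06 CPM in the KO pair. Replicate 2 was 3.62 times replicate 1 in WT and 6.08 times in KO, whereas the mean of KO was 1.23 times the mean of WT. The fitted log2 fold change was 0.30 ± 1.29 (edgeR adjusted p of 0.9989). Sfrp1 had the same order, with replicate 2 above replicate 1 in each genotype, and Wif1 and Sfrp2 had the opposite order. The labels give the replicate numbers no shared source.

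**Figure D2:**
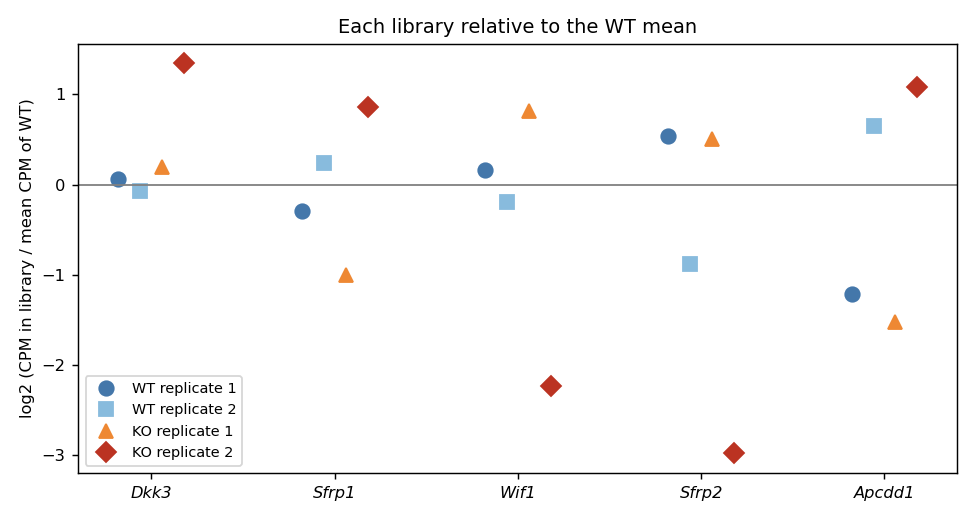
Each library relative to the WT mean, as log2 of CPM over the mean CPM of WT, for the 5 tested antagonists. KO_r2 lies at 1.34, 0.86 and 1.08 for Dkk3, Sfrp1 and Apcdd1 and at -2.23 and -2.98 for Wif1 and Sfrp2, while KO_r1 lies on the other side of 0 from it for Sfrp1, Wif1, Sfrp2 and Apcdd1.

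KO_r2 was the highest or the lowest library for each of the 5 tested genes, a pattern whose share over all tested genes was not computed. Fitted as the only KO library, against the 2 WT libraries and under the assumption that it varies as they do, it gave lower calls for Wif1 (log2 fold change -2.23, edgeR adjusted p of 0.01505) and Sfrp2 (-2.98, edgeR adjusted p of 0.03415). It gave higher calls for Dkk3 (1.34, edgeR adjusted p of 0.003074) and Sfrp1. In that fit 22.5% of 16392 tested genes were called lower and 12.4% higher, so calls were common throughout this library. With KO_r1 as the only KO library, 0 antagonists and 0 of 16904 genes (0%) were called. Among genes at 5 to 20 CPM in the WT pair, the range that holds Wif1, Sfrp2 and Apcdd1, the median absolute log2 difference from the WT mean was 1.38 in KO_r2 and 0.29 in KO_r1, and 8.16% of these genes had 0 counts in KO_r2. The part of this low detection in the antagonist values was not tested.

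The makeup of the antagonist RNA differed in KO_r2 as well. The 8 genes summed to 273.5 and 284.4 CPM in the WT pair, 272.7 CPM in KO_r1 and 575.0 CPM in KO_r2. Dkk3 and Sfrp1 together held 86.0% and 88.8% of that sum in WT, 81.8% in KO_r1 and 96.8% in KO_r2. Wif1 held 7.98% and 6.01% in WT, 12.6% in KO_r1 and 0.721% in KO_r2. The sum was thus level across 3 libraries, with Wif1 taking a larger part and Sfrp1 a smaller one in KO_r1, where Sfrp1 held 15.7% against 25.8% and 35.9% in WT.

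Markers of other cell types were present at lower summed levels than basal markers and varied between libraries, as shown in the plot of marker lists. Luminal markers summed to 552.0 and 881.2 CPM in the WT pair and 614.7 and 1008 CPM in the KO pair over 9 genes, led by Krt8 and Krt18, so that the sum was higher in replicate 2 of each genotype, as for Sfrp1 and Apcdd1. The members split: 5 of 9 were higher in KO_r2 than in KO_r1, among them Prlr (29.21 and 210.1 CPM in the KO pair) and Foxa1 (9.435 and 89.09), and 4 were lower, among them Krt8 (327.0 and 318.0), Esr1 (17.95 and 5.489) and Elf5, which was at 0 in KO_r2. The sum of the 10 immune markers, led by Cd74 and H2-Aa, had that order too. It stood at 71.53 and 168.4 CPM in the WT pair and 113.2 and 324.9 CPM in the KO pair. C1qa, C1qb and Adgre1 were at 0 in KO_r2, and C1qa and Adgre1 also in WT_r1. In the KO pair Cd74 stood at 71.93 and 289.2 CPM and Ptprc at 2.689 and 25.02 CPM, whereas 7 of the 10 genes were lower in KO_r2, among them H2-Aa (15.26 and 6.136) and Lyz2 (20.05 and 1.366). The adipocyte sum over 6 genes, nearly all of it Fabp4, had that order as well. It stood at 15.99 and 29.16 CPM in the WT pair and 32.68 and 138.8 CPM in the KO pair. The other 5 genes, among them Adipoq and Plin1, were at 0 in KO_r2. Adipoq was also at 0 in WT_r1 and KO_r1, and Plin1 in WT_r2 and KO_r1. The sum of the 5 differentiated keratinocyte markers, led by Sbsn and Krtdap, had that order too. It stood at 2.609 and 7.278 CPM in the WT pair and 2.132 and 5.369 CPM in the KO pair. Of the 5, 4 were at 0 in KO_r2. Krt1 was also at 0 in both WT libraries, and Ivl in WT_r1. The part of these luminal, immune, adipocyte and keratinocyte markers in the antagonist values was not tested.

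The summed fibroblast markers were higher in both KO libraries than in both WT libraries, as was Dkk3. The sum was highest in KO_r2, the library where Sfrp2 was lowest. The 12 fibroblast markers summed to 609.5 and 684.1 CPM in the WT pair and 737.2 and 949.6 CPM in the KO pair, led by Fbn1 and Dcn, although Dpt, Mfap5 and Fap were at 0 in KO_r2. Dcn stood at 89.49 and 105.6 CPM in the WT pair and at 153.2 and 221.3 CPM in the KO pair (unadjusted edgeR p of 0.02207, adjusted p of 0.9989). Col6a1 stood at 47.17 and 46.43 CPM in the WT pair and at 75.61 and 131.9 CPM in the KO pair (unadjusted edgeR p of 0.02794, adjusted p of 0.9989). Of the 12 genes, 2 had both KO libraries above both WT libraries and 3 had both below. These patterns were found in 13.2% and 19.2% of all tested genes. Fbn1 overlapped between the genotypes, at 383.8 and 406.8 CPM in the WT pair and 399.1 and 487.0 CPM in the KO pair. Col1a2 and Col3a1 overlapped as well. The mean over the 4 libraries was 419.2 CPM for Fbn1, 142.4 CPM for Dcn and 27.54 CPM for Col1a2, so Fbn1 weighed most in the sum. From KO_r1 to KO_r2, 7 of the 12 genes rose and 5 fell. Col6a2 (55.86 and 27.18 CPM in the KO pair) and Lum (3.516 and 1.007) were among those that fell. The part of these markers in the Dkk3 and Sfrp2 values was not tested. Endothelial markers (9 genes, led by Cdh5 and Vwf) summed to 117.5 and 190.2 CPM in the WT pair and 161.2 and 81.54 CPM in the KO pair. Schwann cell markers (5 genes, led by Mbp and Sox10) summed to 147.3 and 182.4 CPM in the WT pair and 176.6 and 97.43 CPM in the KO pair. Both of these sums, like Wif1 and Sfrp2, were lowest in KO_r2. Of the 9 endothelial genes, 8 were lower in KO_r2 than in KO_r1, and Tek was higher (4.853 and 8.461 CPM in the KO pair). Cdh5 stood at 41.99 CPM in WT_r1, just below its 42.11 CPM in KO_r2. All 5 Schwann cell genes were lower in KO_r2 than in KO_r1. Pericyte markers (7 genes, led by Rgs5 and Notch3) summed to 81.03 and 196.4 CPM in the WT pair and 114.4 and 122.2 CPM in the KO pair. The members split, with 3 higher and 4 lower in KO_r2 than in KO_r1. Notch3 (7.828 and 51.03 CPM in the KO pair) and Des (3.246 and 13.93) were highest in KO_r2. Rgs5 (75.96 and 39.48) was lowest there, apart from Pdgfrb, Cspg4 and Kcnj8, which were at 0.

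**Figure D3:**
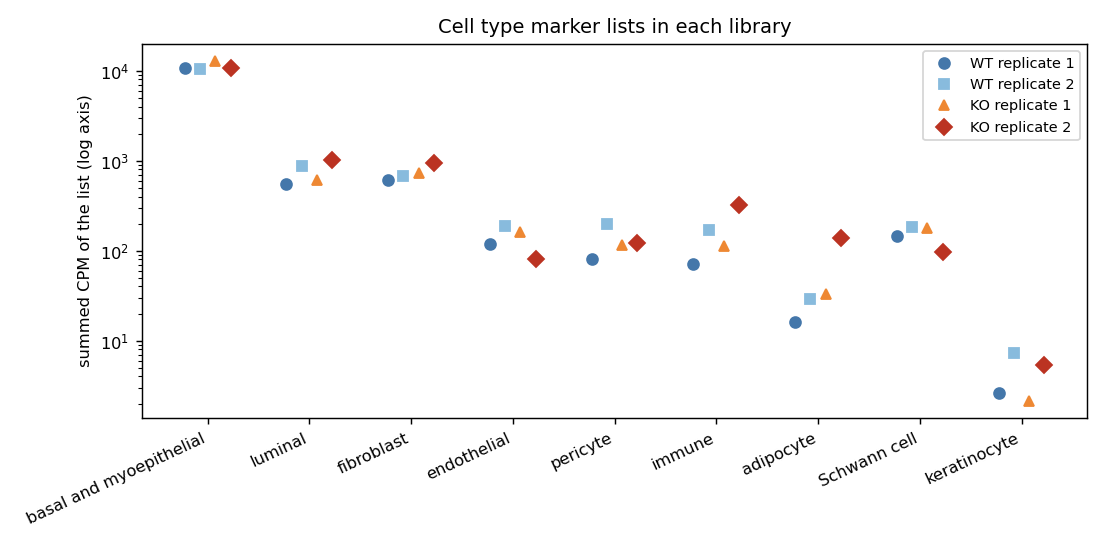
Summed CPM of each cell type marker list in each library, on a log axis. Basal markers lie between 10450 and 12820 CPM in all 4 libraries, and 6 of the 9 lists (luminal, fibroblast, pericyte, immune, adipocyte and keratinocyte) have a higher sum in replicate 2 than in replicate 1 of each genotype.

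The genes whose profile lay nearest to each antagonist were sought among 128 tested genes, those of the pathway and marker lists and the other tested antagonists. Likeness was the root mean square difference of log2(CPM + 1) over 4 libraries, each gene centred on its own mean. Wif1 lay nearest to Sostdc1, a secreted antagonist of Wnt and BMP signals, at 0.18, and Sfrp2 lay nearest to Wif1 at 0.34, with Wnt7b next at 0.35. Sostdc1 stood at 2.822 and 3.295 CPM in the WT pair, 6.269 CPM in KO_r1 and 0 CPM in KO_r2, where Wif1 stood at 4.147 CPM. At such low levels the 1 added to the CPM narrows the distances. Dkk3 lay nearest to Ptk7, a Wnt co-receptor of planar cell polarity, and to Wnt10a, both at 0.14, with Ptk7 at 61.03 and 59.18 CPM in the WT pair and 70.8 and 125.4 CPM in the KO pair. Sfrp1 lay as near to the luminal gene Cldn4 as to the keratinocyte gene Sbsn, both at 0.25, and Apcdd1 lay at 0.32 from Sbsn and 0.34 from the immune gene Cd74. Sbsn had 1.828 and 4.992 CPM in the WT pair and 1.4 and 5.369 CPM in the KO pair, and these distances single out no cell type. With 4 libraries these distances are descriptions.

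The rest of the Wnt pathway also gave 0 called genes, as did all 15364 tested genes (0%). Over all tested genes, 42.8% of fold changes were positive and the median log2 fold change was -0.14. Of 12 other extracellular inhibitors with a row, 7 were tested, 2 of them positive and 5 negative, with a median log2 fold change of -0.30. The 3 with the smallest p-values were Tpbg, a membrane protein that inhibits signalling at Lrp6, Dkkl1 and the Wnt protease gene Trabd2b. Tpbg stood at 154.8 and 156.2 CPM in the WT pair and at 126.7 and 102.2 CPM in the KO pair, below WT in both KO libraries (log2 fold change -0.44 ± 0.24). Dkk1, the best known Dickkopf, had at most 0.8274 CPM, in KO_r1, and was not tested. Apart from Tpbg and Trabd2b, no gene of this list exceeded 6.269 CPM, the level of Sostdc1 in KO_r1.

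Of 13 tested Wnt and R-spondin genes, the ligands that the antagonists bind or compete with, 4 were positive and 9 negative, with a median of -0.57. Of these 13 genes, 4 had 0 counts in KO_r2, and all 4 were negative (Wnt6, Wnt7a, Wnt10b and Wnt16). A count of 0 in KO_r2 lowers the fitted KO level, and its part in these signs was not tested. In KO_r1, Wnt10b and Wnt16 (0.35 CPM, against 0.7631 and 0.5211 in the WT pair) lay below both WT libraries. Wnt7a, at 1.687 CPM in KO_r1, lay between the WT libraries, and Wnt6, at 0.6046 CPM, lay above both. Such a 0 was found in 40.6% of genes at a WT mean of 1 to 5 CPM, the range that holds Wnt7a and Wnt10b. Wnt6 and Wnt16 lay below that range. Wnt10b, Wnt10a and Wnt5a had the smallest p-values. Wnt10b stood at 2.254 and 1.21 CPM in the WT pair, 0.1114 CPM in KO_r1 and 0 in KO_r2 (log2 fold change -4.86 ± 2.38). Wnt5a stood at 52.46 and 64.24 CPM in the WT pair and at 57.64 and 157.0 CPM in the KO pair. Wnt10a, at 15.07 and 12.66 CPM in the WT pair and 19.78 and 42.78 CPM in the KO pair, had the order of libraries seen for Dkk3. Receptors were 11 positive and 6 negative of 17, with a median of 0.36, led by Fzd1 (log2 fold change -0.78 ± 0.32), Fzd7 (0.50 ± 0.22) and Ptk7 (0.71 ± 0.37). Intracellular components were 8 positive and 6 negative of 14, with a median of 0.20, led by Btrc, a ubiquitin ligase adaptor for beta-catenin, Tcf7l1 and Ctnnb1. Btrc stood at 2.644 and 5.009 CPM in the WT pair, 7.542 CPM in KO_r1 and 61.72 CPM in KO_r2. It was the 1 gene of the pathway lists with an unadjusted edgeR p under 0.05 (0.04021, adjusted p of 0.9989). Such p-values were found in 0.957% of all tested genes.

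Of 10 tested Wnt target genes, 7 were positive and 3 negative, with a median of 0.26, led by Cd44, Sox4 and Lgr5. Cd44 stood at 2457 and 2472 CPM in the WT pair and at 2770 and 3981 CPM in the KO pair, and Sox4 had both KO libraries above both WT libraries as well. Lgr5 had 112.8 and 74.09 CPM in the WT pair and 89.5 and 258.0 CPM in the KO pair, which overlapped. Axin2, Rnf43 and Znrf3 were not analysed here. None of these lists was tested as a list, and their medians stand beside a median of -0.14 over all tested genes.

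**Figure D4:**
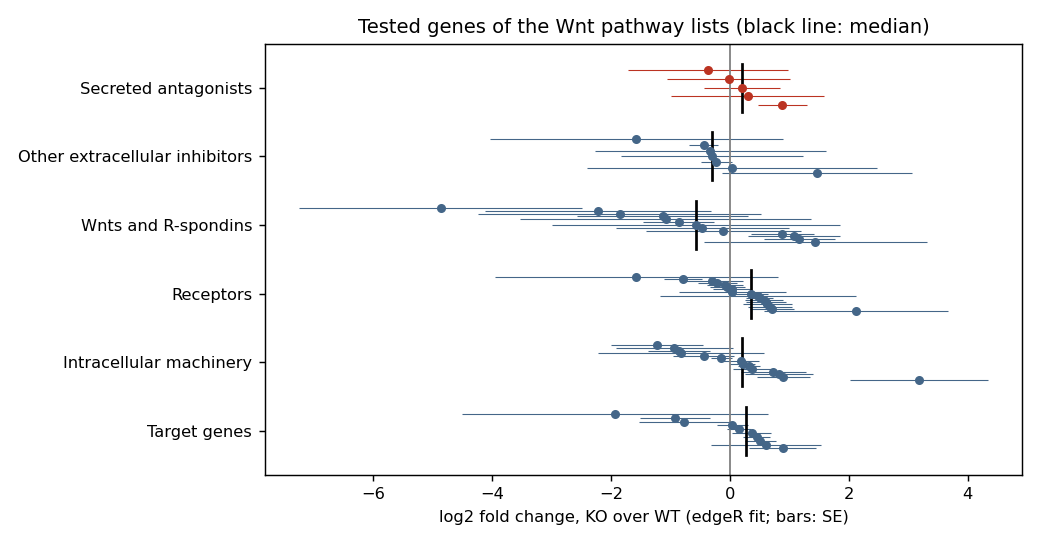
Fitted log2 fold change of KO over WT for each tested gene of the Wnt pathway lists, with its SE as a horizontal bar and the median of each list as a black line. The medians run from -0.57 for Wnt and R-spondin genes to 0.36 for receptors, against -0.14 over all tested genes. Dkk3, at 0.88, is the highest of the 5 antagonists.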

How the data were processed

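RNA of sorted basal cells was measured in 2 WT and 2 KO libraries. The deposited values are whole-number counts per Ensembl gene. The submitters' processing notes name TopHat2 (2.02), HTSeq and the mouse build NCBIM37 (mm9). The annotation release and strand setting are each not given in the sources used here. Symbols, exon lengths and 3' UTRs came from GENCODE M21 (GRCm38) by gene identifier, with 86.9% of the 34615 rows matched. The 5 summary rows of each file stayed out, among them reads outside any feature (57.59% to 61.52%) and ambiguous reads (0.71% to 0.79%).

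All genes were fitted with edgeR 4.0.16 (R 4.3.3; filterByExpr, TMM, quasi-likelihood test, genotype only), and p-values were adjusted by Benjamini-Hochberg over all tested genes. CPM are scaled by TMM. Intervals are 95% exact Poisson intervals, and a count of 0 allows 3 counts; amplified reads are not independent molecules, so both cover counting error only.

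The antagonists and the gene lists were chosen with earlier results of these data known. All 8 antagonists are named, with the 3 tested genes of smallest p in each pathway list, the 2 most abundant markers of each type and the nearest profile of each tested antagonist. Dkk1, the next-nearest profiles, the markers at 0, further markers and ligands given as examples, and the genes not analysed were named after their values were seen. Alternatives were DESeq2 1.42.0, other scalings and filters, limma voom (3.58.1), a replicate block and each library left out.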

Additional observations from a re-analysis of the deposited data

How the results depend on the processing

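Dkk3 kept a positive log2 fold change under all 11 alternatives and was called under 1 of them, without KO_r1 (0.20 to 1.34 over the fits that left out a library). The other antagonists changed direction. Sfrp1 had a log2 fold change of -0.18 with limma voom and -0.05 with the replicate block, and -1.0 to 0.86 with a library left out. Apcdd1 had -0.21 with limma voom and -1.52 to 1.5 with a library left out. Sfrp2 ran from -2.98 to 0.52 and Wif1 from -2.23 to 0.82 with a library left out. Sfrp1, Sfrp2, Dkk3 and Wif1 were called without KO_r1, where KO_r2 is the only KO library.

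The number of called genes was 0 in the edgeR fit and 0 with the replicate block, limma voom, upper quartile or total count scaling, a limit of 5 on the mean CPM, and without a filter. It was 4 with DESeq2 and 0 to 5724 with a library left out, the highest without KO_r1, and 5 without either WT library. The median log2 fold change of all tested genes was -0.14 with TMM, -0.23 with upper quartile and -0.24 with total count scaling. The replicate numbers were not taken to pair the libraries: the replicate differences in WT and KO had a correlation of 0.023 across genes. With 2 libraries per genotype, no outlier test within a genotype was run; KO_r2 stood apart by its correlations with the other libraries. Changes of Frzb, Dkk2 and Sfrp4 were not detectable at this depth.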
